A study of Mus musculus with 6 samples.

Results

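Iron uptake and storage were followed through 9 genes, Tfrc, Steap3, Slc11a2, Fth1, Ftl1, Slc40a1, Hmox1, Aco1 and Ireb2, on arrays of irradiated and mock-irradiated pre-B cells. The genes were chosen by name, on the known pathway, after the signal of Tfrc had been seen to be lower on the irradiated arrays. The values of 1 Gy against 0 Gy given for them are therefore a description, with no p-value. Members were the rows whose platform gene symbol is 1 of the 9, which gave 22 probe sets of 8 genes among the 45101 probe sets of the array. Of these, 19 are ordinary probe sets and 3 are control probe sets of the array that match the Tfrc message. Ftl1 has no probe set of its own, since the 3 that list it also list its pseudogene Ftl1-ps2.

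Irradiated cells received 1 Gy of γ-rays and were collected 2 hours later, and the mock-irradiated cells (0 Gy) were collected with them, 3 arrays each. All cells were v-abl-transformed wild type murine pre-B cells that carry an Eμ-Bcl2 transgene, driven by the immunoglobulin heavy chain enhancer, and all were held in 3 μM STI571, an Abl kinase inhibitor that stops them in G1, for 48 hours. The 3 cell lines were derived independently, and the replicate number marks the line, so that each line gave 1 irradiated and 1 mock array and the spread is that between lines. They are transformed lines, arrested by a drug and protected from apoptosis by the transgene, and not primary cells.

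Transferrin receptor 1, the product of Tfrc, takes up iron bound to transferrin by endocytosis. In the endosome the iron is reduced by Steap3 and carried to the cytosol by the divalent metal transporter Slc11a2 (DMT1). Iron that is not used is stored in ferritin, made of heavy (Fth1) and light (Ftl1) chains, or leaves through ferroportin (Slc40a1), and heme oxygenase (Hmox1) frees iron from heme. The iron regulatory proteins Aco1 (IRP1) and Ireb2 (IRP2) bind stem-loops called iron-responsive elements. Such binding protects the Tfrc message from decay and blocks translation of the ferritin and ferroportin messages, so that an mRNA level says little about the amount of ferritin protein. Dividing lymphocytes are known for their high demand for transferrin iron.

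The arrays were alike in depth, with 41.7% to 43.8% of probe sets at a signal of 100 or above and median signals of 51.6 to 59.4. Signals are in arbitrary units, scaled to a trimmed mean of 500 on each array, and probe sets differ in how well they bind, so that levels of different probe sets were not compared. The labelled cell type was borne out by its markers, as 10 of 10 measured pre-B cell genes, Cd79a and Pax5 among them, were above 100 on all 6 arrays. Of 7 erythroid markers and 7 T cell markers, 0 reached 100 on any array, and the hemoglobin gene Hba-a1 lay between 1.16 and 4.56. Of 11 myeloid markers 2 did, Itgam and Cd68, and the summed myeloid signal was 665 to 669.9 on the irradiated arrays, against 439 to 511 on the mock arrays. Itgam had 262, 342 and 235 after 1 Gy and 163, 162 and 130 after 0 Gy, and Cd68 was also higher after 1 Gy. The rest of the 11 stayed under 100 on every array, without a shared direction. The summed erythroid signal was 117 to 186 after 1 Gy and 152 to 217 after 0 Gy, and the summed T cell signal was 80.9 to 101 after 1 Gy and 58.9 to 145 after 0 Gy. The quality of the RNA was read from controls at both ends of the beta-actin and Gapdh messages. For beta-actin the 3' signal over the 5' signal was 1.26 to 1.38 after 1 Gy and 1.40 to 1.501 after 0 Gy, and for Gapdh it was 0.785 to 0.800 after 1 Gy and 0.768 to 0.900 after 0 Gy. The part of the myeloid signal and of RNA quality in the values below was not tested.

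The start of the Tfrc gene is shown because Tfrc is the gene whose signal set this group of genes apart. RefSeq (GRCm38.p6) gave start regions, 250 bases before to 50 after each annotated start, for 6 of the 9 genes in 11 windows. The windows of Hmox1, Slc11a2 and Slc40a1 were not in the table used here. The 30 bases around the first annotated Tfrc start, at chr16:32608882-32608911 on the + strand, hold the letters ACGTG, the core that hypoxia-inducible factors and some other factors bind, printed in capitals.

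Tfrc start: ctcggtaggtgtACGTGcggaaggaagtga

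ACGTG, read on both strands, occurs in both Tfrc windows, which overlap and share this 1 match, and in 0 of the 9 windows of Fth1, Ftl1, Aco1, Ireb2 and Steap3. It is present in 19.6% of all 32851 start windows. The longer CACGTG, which contains it, is in 7.15% of windows and in 0 of the 11, and TGACNNNGC, the core of the antioxidant response element, is in 12.4% and in 0 of the 11. The loop letters CAGTG were in 6 of the 11 windows (Ftl1, Steap3 and Tfrc) and in 55.9% of all. A whole iron-responsive element stem, a C and 5 bases before CAGTGN and 5 pairing bases after it, was in 0 of the 11 windows and in 0.0791% of all. These windows reach only 50 bases into the transcript, and the letters beyond were not used here.

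Tfrc was lower after irradiation on its bright probe set in all 3 lines, at 36.2% of the mock signal. On 1452661_at the irradiated lines had signals of 3163, 2850.4 and 3119 (replicates 1 to 3), and the mock lines had 9657, 8445 and 7261. The 3 irradiated values lay within a narrow band and far below every mock value. The mean was 3044 ± 169 after 1 Gy and 8454 ± 1198 after 0 Gy (SD, n = 3), which gave a log2 fold change of -1.47 with a standard error of 0.16. Standard errors here and below come from a limma fit with dose as the only factor, which does not pair arrays by line. In cultures taken whole, less RNA per cell and fewer cells that hold it cannot be told apart. Within lines the log2 differences were -1.61, -1.57 and -1.22, so that replicate 3 changed least. Within each array, the probe set stood at the 93.5th to 94.2nd percentile after 1 Gy and at the 98.1st to 98.7th after 0 Gy.

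The other 5 probe sets of Tfrc pointed the same way in each line, at signals of 286 or less. On 1422966_a_at the signals were 145, 110.4 and 182 in irradiated lines and 198, 286 and 226 in mock lines. The log2 fold change was -0.71, with a standard error of 0.24. The groups did not overlap, and most of the difference came from replicate 2, whose log2 difference was -1.38 against -0.45 and -0.32 in replicates 1 and 3. On 1422967_a_at the signals were 50.1, 56.7 and 4.19 after 1 Gy and 113, 69.0 and 54.8 after 0 Gy, and the groups overlapped. Its log2 fold change of -1.72 rested on the 1 value of 4.19, as it was -0.50 without the irradiated array of replicate 3 and -0.06 with signals under 100 set to 100. That probe set therefore gives no usable size.

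The control probe sets for Tfrc cover the 3' end, the middle and the 5' end of its message. The 3' control read 47.3, 62.3 and 71.2 after 1 Gy, against 139.7, 129 and 111 after 0 Gy, a mean log2 difference of -1.08 with no overlap. The 5' control read 35.4, 26.7 and 21.6 after 1 Gy, against 114, 44.7 and 27.1 after 0 Gy, and the middle control 41.6, 23.5 and 26.1 after 1 Gy, against 87.8, 40.9 and 40.1 after 0 Gy. Both were lower within each line, with mean log2 differences of -0.92 and -0.83, and both overlapped between groups because the mock lines differed. The differences within lines ran from -1.69 to -0.32 for the 5' control and from -1.56 to -0.64 for the 3' control, each smallest in replicate 3. All 6 probe sets of Tfrc were thus lower in 3 of 3 lines, and only 1452661_at and 1422966_a_at were at 100 or above on all 6 arrays.

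**Figure D1:**
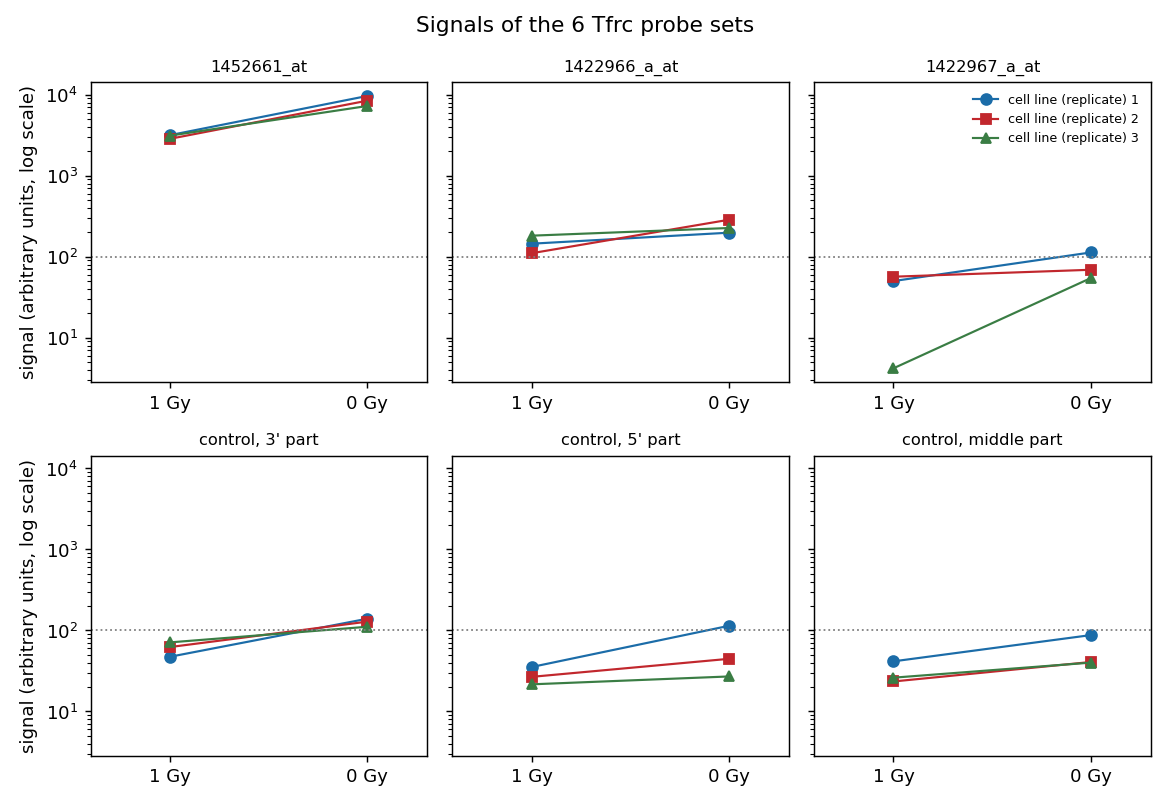
Signals of the 6 Tfrc probe sets in arbitrary units (vertical, logarithmic, with 100 dotted) by dose, 1 Gy and 0 Gy (horizontal), where each joined pair of points is 1 cell line. On 1452661_at the 1 Gy signals lie between 2850.4 and 3163 and the 0 Gy signals between 7261 and 9657, while the other 5 probe sets lie below 300.

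Slc11a2, which carries endosomal iron to the cytosol, was lower after 1 Gy on all 4 of its probe sets in 3 of 3 lines, with no overlap between groups. Over all 21762 probe sets tested, 29.9% had no overlap. Of the 4, 3 reached 100, and on mock arrays alone. The signals of Slc11a2 were dim. On 1417584_at they were 23.8, 87.4 and 88.2 in irradiated lines and 158, 355 and 206 in mock lines. The log2 differences within lines were -2.73, -2.02 and -1.22, with a mean of -1.99 (unpaired standard error 0.60). On 1452078_a_at the irradiated lines had 29.9, 63.0 and 45.4 and the mock lines 79.6, 188 and 144, and the differences within lines were close to each other at -1.41, -1.58 and -1.66. On 1426441_at the signals were 39.3, 43.1 and 45.3 after 1 Gy and 103, 88.5 and 75.0 after 0 Gy, a log2 fold change of -1.05 (standard error 0.17). The fourth, 1441709_at, was under 100 on every array and averaged 26.5 ± 10.7 after 1 Gy and 46.7 ± 5.52 after 0 Gy (SD, n = 3). All 12 irradiated values of Slc11a2 were under 100, so that the sizes depend on how dim signals are treated. With signals under 100 set to 100 the log2 fold changes of the first 3 were -1.18, -0.48 and -0.01. Without the irradiated array of replicate 1, the value of 1417584_at was -1.36.

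Steap3, the endosomal iron reductase, did not reach 100 on any array on any of its 3 probe sets. The brightest, 1423468_at, had 13.4, 28.0 and 24.2 after 1 Gy and 41.8, 43.7 and 71.4 after 0 Gy. The groups did not overlap, and at these signals no level of Steap3 can be given. The other 2 probe sets averaged between 3.04 and 20.9 in each group.

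The 2 probe sets of Fth1, the ferritin heavy chain, had signals of 18754 or more on every array, and their differences between doses were small. Fth1 had signals of 21757, 21203 and 21564 in irradiated lines on 1448771_a_at, against 23623, 27411 and 22061 in mock lines. This gave a log2 fold change of -0.17, with a standard error of 0.14. The signals were lower in 3 of 3 lines and did not overlap between groups, where 29.9% of all probe sets tested had no overlap. On its second probe set, 1427021_s_at, the signals were 21878, 18754 and 20937 after 1 Gy and 22264, 24549 and 20421 after 0 Gy, with a log2 fold change of -0.13 (standard error 0.14) and overlapping groups. In both, replicate 2 had the largest difference, -0.37 and -0.39 on the log2 scale. The probe sets shared by Ftl1 and Ftl1-ps2 cannot be assigned to either gene. The brighter of them, 1418364_a_at, read 26411, 19769 and 23971 after 1 Gy and 20303, 23664 and 17529 after 0 Gy, higher in replicates 1 and 3 and lower in replicate 2. The log2 fold changes of the 3 shared probe sets were 0.19, 0.14 and -0.07, with standard errors of 0.19, 0.15 and 0.27.

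Slc40a1, the only known iron exporter of mammalian cells, lay under 100 on every array, with signals of 5.56 to 36.5 after 1 Gy and 11.7 to 40.4 after 0 Gy on 2 probe sets. Hmox1, which breaks down heme and is a textbook target of Nrf2 and Bach1, had 121, 120.3 and 131 in irradiated lines and 118, 239.8 and 188 in mock lines. The log2 difference was 0.04 in replicate 1, -0.99 in replicate 2 and -0.52 in replicate 3. The groups overlapped, and the log2 fold change was -0.49 (standard error 0.27). It was -0.78 without the mock array of replicate 1 and -0.27 without that of replicate 2.

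The 2 iron regulatory proteins were unlike each other. Ireb2 had signals of 3278, 3021 and 3173 after 1 Gy and 2615, 2786 and 2660.0 after 0 Gy. It was slightly higher in 3 of 3 lines with no overlap, and its log2 fold change was 0.23 (standard error 0.12). Of all probe sets tested, 29.9% had no overlap. Aco1 varied between cell lines far more than between doses. On 1456728_x_at the irradiated lines had 152, 351 and 29.7 and the mock lines 216, 730.1 and 74.4, so that replicate 2 was the highest and replicate 3 the lowest at both doses. The difference between the highest and the lowest line, averaged over doses, was 3.43 on the log2 scale, while the differences between doses within lines were -0.51, -1.06 and -1.33. On 1423644_at the signals were 126, 296 and 3.79 after 1 Gy and 137, 461 and 55.6 after 0 Gy, in the same order of lines. Without the irradiated array of replicate 3, the unpaired log2 fold changes of these 2 probe sets were 0.02 and 0.34 in place of -0.96 and -1.54. That comparison keeps the mock array of the lowest line. Within the other 2 lines the differences of 1423644_at were -0.12 and -0.64, so that both probe sets were lower in each line. The third probe set of Aco1 did not exceed 21.2 on any array.

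**Figure D2:**
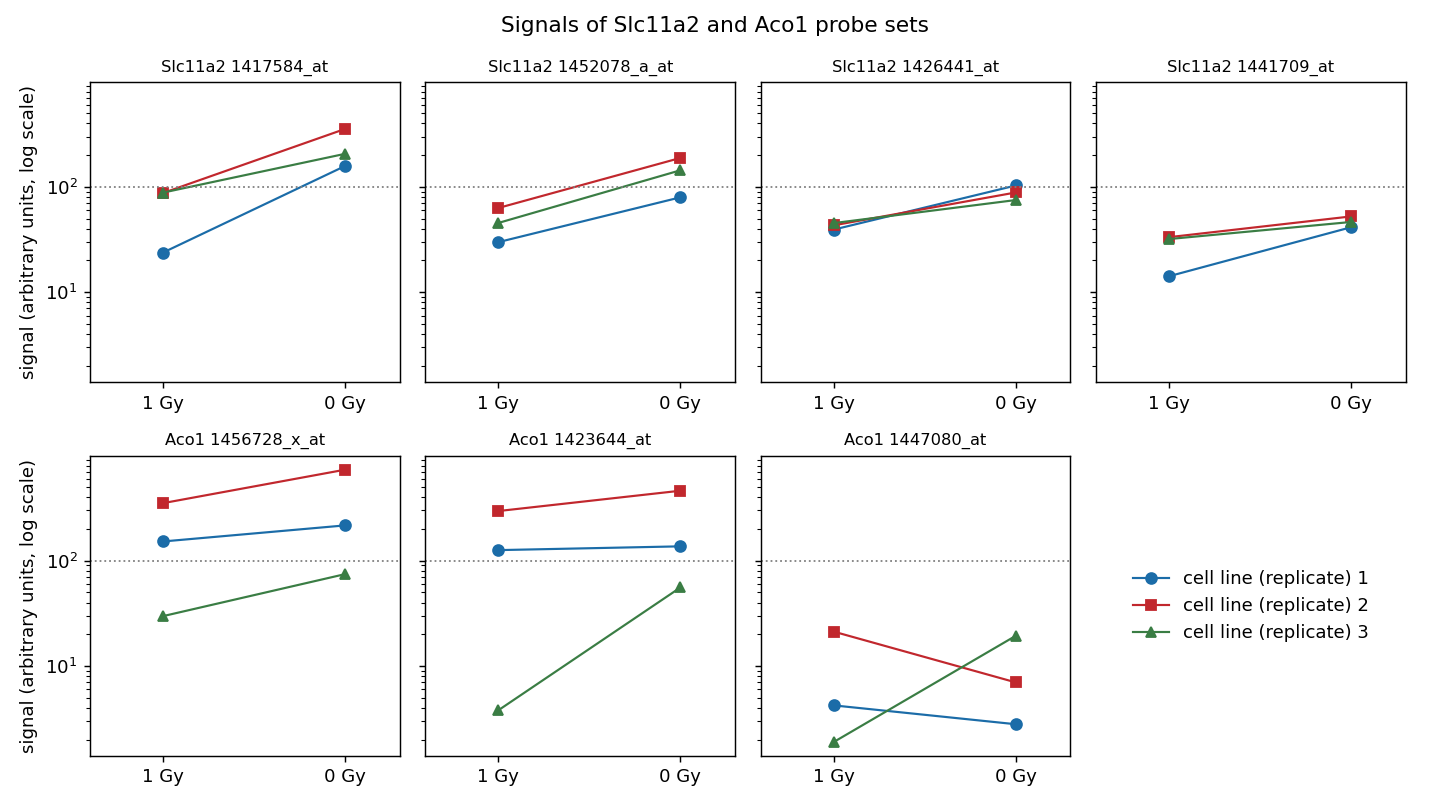
Signals of the 4 Slc11a2 probe sets (upper row) and the 3 Aco1 probe sets (lower row) in arbitrary units (vertical, logarithmic, with 100 dotted) by dose, 1 Gy and 0 Gy (horizontal), where each joined pair of points is 1 cell line. The Slc11a2 pairs all climb towards 0 Gy, while on Aco1 1456728_x_at the 3 cell lines lie apart at both doses, from 29.7 to 351 after 1 Gy and from 74.4 to 730.1 after 0 Gy.

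Differences between the cell lines played no part in the choice of genes and were tested, with the limits given below. With dose in the model, an F test of the cell line in limma called 2 of the 12 tested member probe sets, Aco1 1456728_x_at (adjusted p = 0.0123) and Slc11a2 1452078_a_at (adjusted p = 0.0350). Over all probe sets tested the share was 8.60%. The filter on dim probe sets is tied to this test, since both passed it only through the lines in which they were higher, replicates 1 and 2 for Aco1 and the mock arrays of replicates 2 and 3 for Slc11a2. The range over lines was 3.43 for that Aco1 probe set and 1.16 for that Slc11a2 probe set on the log2 scale. Aco1 1423644_at, with a range of 4.67, did not pass (adjusted p = 0.0905, limma). For Tfrc 1452661_at the range was 0.22 and for Ireb2 it was 0.01, and neither passed (adjusted p = 0.598 and 0.996, limma). This test was added after the values had been seen. Each line gave 1 array per dose, so that a line and its cultures cannot be told apart.

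**Figure D3:**
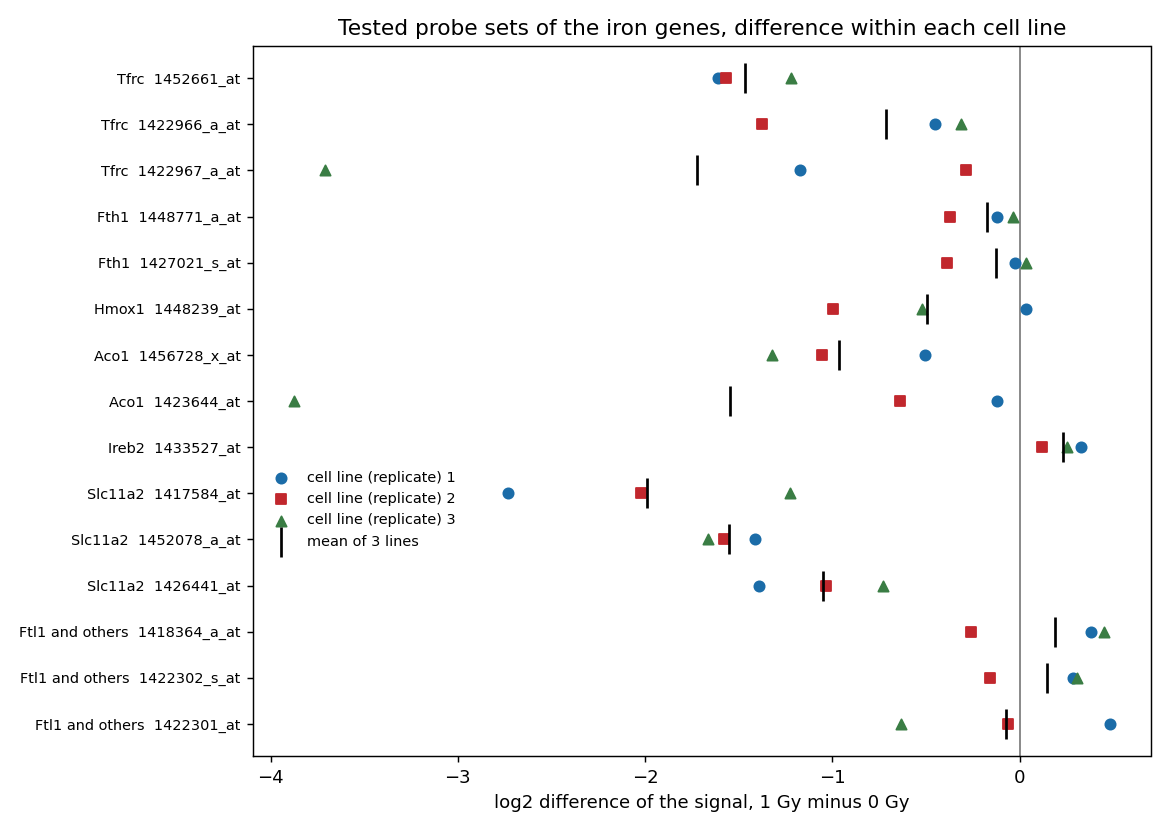
Log2 difference of the signal, 1 Gy minus 0 Gy (horizontal axis), for the 12 tested probe sets of the iron genes and the 3 shared by Ftl1 and others (vertical axis), with 1 symbol per cell line and a bar at the mean. Tfrc 1452661_at and the 3 Slc11a2 probe sets lie left of -0.7 in all 3 lines, and the Fth1 and Ireb2 symbols lie between -0.39 and 0.33.

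Of the 19 ordinary member probe sets, 12 of 6 genes reached 100 on at least 1 array and entered the fit, and 7 did not. Of these 12, 4 passed that filter through mock arrays alone (3 of Slc11a2 and 1 of Tfrc) and 0 through irradiated arrays alone. Signals of the 1 Gy and 0 Gy arrays did not overlap in 7 of the 12, against 29.9% of all 21762 probe sets tested. In limma, 2 of the 12 were called lower (Tfrc 1452661_at and Slc11a2 1426441_at) and 0 higher, against 2.55% lower and 1.93% higher over all probe sets tested. Blocked by cell line, 5 were called lower and 0 higher, against 11.5% and 6.78%. The 3 added were Slc11a2 1417584_at and 1452078_a_at and Aco1 1456728_x_at. These counts describe genes picked with this contrast known, and nothing is read from them. Without any 1 of the 6 arrays neither was called, although the log2 fold change of Tfrc 1452661_at stayed between -1.57 and -1.36, and Slc11a2 1426441_at no longer reached 100 without the mock array of replicate 1. With arrays brought to 1 shared median, the split of all calls moved to 369 higher and 274 lower, against 419 higher and 556 lower in the deposited scaling, and 1 member was called lower, Tfrc 1452661_at.

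Around these 9 genes, 5 lists of other iron and heme genes held 109 genes, listed by their known function. Of these 101 were named on the array and 81 were tested, each by its brightest probe set. After 1 Gy, 6 of the 81 fell and 3 rose (limma, adjusted p under 0.05), against 3.24% lower and 2.12% higher over the 9664 genes tested. The median log2 fold change was -0.02 over the 81 and -0.11 over all genes. Blocked by cell line, 12 fell and 6 rose, against 14.7% and 6.63%. Without any 1 of the 6 arrays, 0 were called lower and 0 to 1 higher. The lists were chosen with earlier results of these data known, so that the counts are a description. The shares of all genes given here also apply to the counts of each list below.

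Both mitoferrins fell. Slc25a37 (mitoferrin 1), which brings iron into mitochondria for heme and iron-sulfur clusters, had 547, 361 and 447 in irradiated lines and 1228, 1193 and 1505 in mock lines. The log2 fold change of -1.55 had a standard error of 0.20 (adjusted p = 0.0247, limma). Slc25a28 (mitoferrin 2) had 849, 837 and 830.4 after 1 Gy and 1485, 1739 and 1598 after 0 Gy. Its log2 fold change of -0.94 had a standard error of 0.13 (adjusted p = 0.0273, limma). The irradiated values of both lay below all mock values. Of the 8 tested genes of uptake, export and trafficking, these 2 fell and 0 rose, with a list median of -0.28. The other 16 genes of that list on the array, among them the second transferrin receptor Tfr2 and the hormone hepcidin (Hamp), stayed under 100 on every array. With the arrays scaled to 1 median Slc25a37 still fell (adjusted p = 0.0295, limma), and Slc25a28 did not pass (adjusted p = 0.0520).

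Of 15 tested genes of heme synthesis, transport and breakdown, 0 passed the test in either direction by limma, while 0 higher and 5 lower had an unadjusted p under 0.05 and the median was -0.52. Over all 9664 genes, 811 higher and 1617 lower had such a p. The 3 with the largest differences shared by all lines were Abcb6, Hmox2 and Fech. Hmox2, the constitutive heme oxygenase, had 1636, 1957 and 1467 after 1 Gy and 2823, 3315 and 2664 after 0 Gy (log2 fold change -0.80, adjusted p = 0.0603, limma). Fech, which inserts iron to form heme, averaged 212 ± 61.1 after 1 Gy and 360.3 ± 116 after 0 Gy (SD, n = 3, adjusted p = 0.266, limma). Abcb6, a porphyrin transporter, averaged 90.4 ± 41.7 after 1 Gy and 183 ± 117 after 0 Gy, with nearly equal signals in replicate 3 (57.3 and 57.3). Blocked by cell line, 4 genes of this list fell, namely Hmox2 (adjusted p = 0.0192), Fech (0.0247), Urod (0.0340) and Blvra (0.0342), and 0 rose. Over all genes tested, 14.7% fell and 6.63% rose in that fit.

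Among 21 tested genes of iron-sulfur cluster assembly, 1 fell and 0 rose, with a median of -0.02. It was Lyrm4 (ISD11), a partner of the cysteine desulfurase, with 385, 444 and 335 in irradiated lines and 751, 881 and 659 in mock lines. The difference was -0.98 on the log2 scale, with a standard error of 0.18 (adjusted p = 0.0453, limma). Iscu, the scaffold on which clusters are built, was higher in 3 of 3 lines, with 15188 ± 1393 after 1 Gy and 9298 ± 1776 after 0 Gy (log2 fold change 0.72). In the fit blocked by line it rose (adjusted p = 0.0296, limma), and without the block it did not pass (0.0861). After scaling to a common median Lyrm4 did not pass either (adjusted p = 0.0701, limma), nor after quantile normalization.

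Of 20 tested genes that act on the iron regulatory proteins or on Tfrc, Hmox1 and ferritin, 3 rose and 2 fell, with a median of -0.01. Fbxl5, the ubiquitin ligase subunit that senses iron and marks Ireb2 for breakdown, had 2016, 1939 and 1527 after 1 Gy and 3208, 5014 and 4633 after 0 Gy. That is a difference of -1.21 on the log2 scale, with a standard error of 0.23 (adjusted p = 0.0452, limma). Zc3h12a (Regnase-1), an endonuclease known in mice to cleave the Tfrc message, had 1002, 859 and 1458 in irradiated lines and 286, 201 and 320.3 in mock lines (log2 fold change 2.03, adjusted p = 0.0261, limma). Every irradiated value lay well above the highest mock value. Zfp36l1, of a family that binds AU-rich messages and speeds their decay, averaged 21413 ± 2283 after 1 Gy and 8064 ± 820 after 0 Gy (log2 fold change 1.41, adjusted p = 0.0188, limma). Its relative Zfp36 did not pass the test (log2 fold change 0.14), nor did Rc3h1 (-0.02), the RNA-binding protein roquin. Maff, a partner of Nrf2 and Bach1, rose by 3.81 on the log2 scale and Keap1, which holds Nrf2 in check, fell by 0.99 (adjusted p = 0.00957 and 0.0340, limma). The mock signals of Maff were dim, at 107, 71.6 and 76.2. With signals under 100 set to 100 its log2 fold change was 3.52. The study had already reported Maff as higher after irradiation from these arrays. Bach1 and Nfe2l2 (Nrf2) did not pass (0.19 and -0.14), and Hif1a, which can act on Tfrc through ACGTG, was at -0.03. These values are of mRNA and do not give the amounts of protein, that of Nrf2 included. The study's Western blots found more of that protein after irradiation than in mock-irradiated cells. Myc, which can activate Tfrc, had 225, 160 and 283 after 1 Gy and 657, 5.46 and 20.4 after 0 Gy, a spread in mock lines that leaves no direction. Whether any gene of this list had a part in the signals of Tfrc, Hmox1 or ferritin was not tested. In the fit blocked by line, 4 genes of the list rose and 3 fell, against 6.63% and 14.7% over all genes tested. The 2 added were Mafg, another small Maf partner (log2 fold change 0.66, adjusted p = 0.0302, limma), and Egln1, an oxygen sensor that marks Hif1a for breakdown (-1.06, adjusted p = 0.0184). After scaling to a common median, Fbxl5 and Keap1 did not pass (adjusted p = 0.0744 and 0.0556, limma).

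Of 17 tested genes of receptor endocytosis and recycling, 1 fell and 0 rose, with a median of 0.12. It was Exoc6, an exocyst subunit whose loss in mice slows the transferrin cycle. Its signals were 665, 522 and 545 in irradiated lines and 1044, 998 and 1085 in mock lines, so that it differed by -0.86 on the log2 scale (standard error 0.15, adjusted p = 0.0395, limma). The coat genes Cltc and Clta had log2 fold changes of 0.08 and 0.03, and Rab11a, of recycling endosomes, was at 0.00. Ehd1, which drives recycling to the surface, averaged 1638 ± 583 after 1 Gy and 549 ± 119 after 0 Gy. It rose in the fit blocked by line (adjusted p = 0.0161, limma) but not in the unblocked fit (0.0526). Ap2s1, a subunit of the clathrin adaptor AP-2, fell in the blocked fit (log2 fold change -0.70, adjusted p = 0.0317, limma) and did not pass in the unblocked fit (0.331). Exoc6 did not pass after scaling to a common median (adjusted p = 0.0554, limma).

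**Figure D4:**
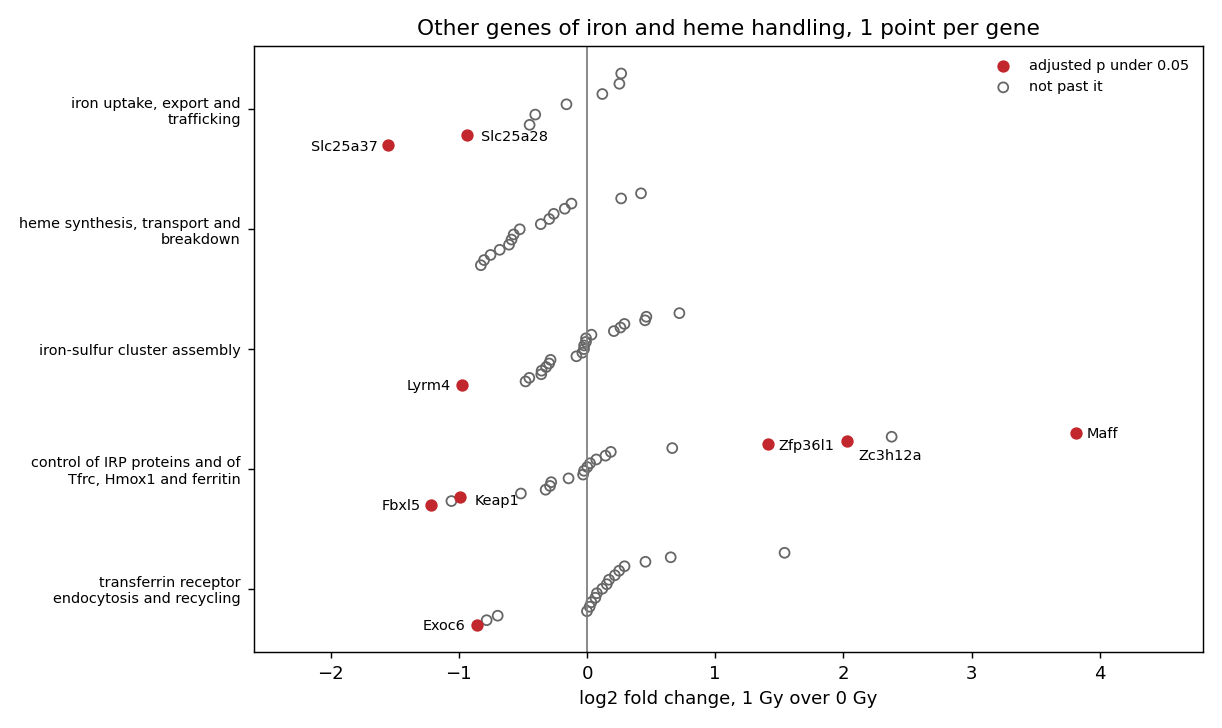
Log2 fold change, 1 Gy over 0 Gy (horizontal axis), of the 81 tested genes of 5 lists (vertical axis), 1 point per gene at its brightest probe set, filled and named where the adjusted p from limma was under 0.05. Of the 9 named genes 6 lie left of 0, from -1.55 to -0.86, and 3 lie right of it, from 1.41 to 3.81.

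The genes whose signals ran most like Tfrc 1452661_at over the 6 arrays were Ngly1, Igsf8, Lockd, Ano6 and Prdx3, out of 8908 genes with a mean signal of 100 or more. Their Pearson correlations of log2 signals were 0.998 for Ngly1 and Igsf8, 0.997 for Lockd and Ano6 and 0.995 for Prdx3. The sizes differed, from a log2 fold change of -2.21 for Igsf8 to -0.16 for Prdx3, a mitochondrial peroxiredoxin. The most opposite were Mtf1, 4930453N24Rik, Myo1g, Tgif1 and Btbd9, with correlations of -0.999 to -0.995. Mtf1, a transcription factor that responds to metals, had 727, 732 and 726 after 1 Gy and 632, 644 and 653 after 0 Gy. These 6 points share the split by dose and the pairing by line, and with so many genes ranked over so few arrays the correlations are a description only.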

How the data were processed

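The authors deposited 1 intensity value per probe set for each of 6 Affymetrix mouse arrays, on a linear scale. MAS5 is the tool that the submitters' processing notes give, while the study's methods describe RMA with quantile normalization, which these values had not been through. From these signals, log2 values were computed here (a signal under 1 was set to 1). The fit left out control probe sets and those that stayed under 100 on every array, and used limma 3.58.1 in R 4.3.3, 1 Gy against 0 Gy, with dose as the only factor. P-values were adjusted by Benjamini-Hochberg over all 21762 probe sets, also for genes. No detection flags were used, and the number of arrays limits the precision.

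Gene names came from the platform annotation, in which 34945 ordinary probe sets have 1 name, 932 several and 9160 are not listed. The members and lists were chosen with earlier results of these data known. The text names all members, the called genes of each list (failing those, the 3 largest differences shared by all lines), 10 genes ranked by correlation with Tfrc, and defining markers. Iscu, Ehd1, Ap2s1, Mafg, Egln1, Urod, Blvra, Zfp36, Rc3h1, Bach1, Nfe2l2, Hif1a, Myc, Tfr2, Hamp, Cltc, Clta and Rab11a were added after their values were seen.

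The replicate numbers mark the cell lines. Deviations from group means correlated at 0.668 to 0.781 between arrays of 1 number (3 pairs) and at -0.495 to -0.0525 between others (6 pairs), so that a second fit took the line as a block. The fits were tested on simulated data. The alternatives were the block, other filters, quantile normalization, arrays scaled to 1 median, 16 added before taking log2, a floor of 100, a trend in the variance prior, the test of the methods (unadjusted p of 0.05 or less and 1.5-fold), the Tfrc controls in the fit, the mean of a gene's probe sets and leaving out each array.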

Additional observations from a re-analysis of the deposited data

How the results depend on the processing

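All alternatives reuse the arrays on which the lower signal of Tfrc led to the choice of the member genes. The direction below is therefore no independent check, and the calls of members are a description. Tfrc 1452661_at was lower under all 16 alternatives run. Its log2 fold change was -1.47 without the filter on dim probe sets, -1.57 to -1.36 without single arrays, and in both cases no longer past the threshold. The 1 call among Tfrc probe sets became 0 without the filter, 2 with the Tfrc controls in the fit, and 0 without any 1 array. The 2 of 12 member probe sets called lower became 5 with the cell line as a replicate block, against 11.5% of all 21762 probe sets. By the test of the methods they became 4, against 1729 of the 21762. They became 1 with a minimum of 100 on 3 arrays, scaling to a common median, quantile normalization, a floor of 100 or a trend in the variance prior, and 0 without the filter or without any 1 array (0 to 0). Over all probe sets, the fits that left 1 called 770, 274, 460, 841 and 825 lower, in the order given, against 556 without these changes. No member probe set was called higher under any alternative run.

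Of the other iron and heme genes (81 tested), the 6 called lower became 12 with the block, against 14.7% of all genes tested. They became 10 by the test of the methods and 1 after scaling to a common median. All probe sets called lower numbered 1729 and 274 in these fits. Without the filter or any 1 array, 0 of these genes were called lower (0 to 0). The 3 called higher became 6 with the block, against 6.63% of all genes tested. With the trend or the test of the methods they became 6, against 690 and 1121 of all probe sets. With the floor they became 5, against 635 of all probe sets. They became 0 without the filter and 0 to 1 without single arrays. Both counts stayed within 1.5 times under the remaining alternatives, averaging a gene's probe sets (8 lower, 3 higher) among them. Without the filter, limma called 1 probe set of 45037, with 5391 at an unadjusted p under 0.05. Without single arrays it called 0 to 120 of all probe sets. The block changed no other call of a member named in the text. Signals under 100 limit what can be said of Slc11a2, Steap3, Slc40a1 and the dim Tfrc probe sets.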
